A study of Homo sapiens with 6 samples.

Results

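The circadian clock genes described here are 10 genes measured in HaCaT, a line of human keratinocytes that became immortal spontaneously: CLOCK, ARNTL, PER1, PER2, PER3, CRY1, CRY2, DBP, TEF and NFIL3. They were found by gene symbol in a table of 58735 genes, and each symbol matched 1 row. The study compared 3 control libraries with 3 libraries of cells treated for 48 h with dacomitinib, a drug that binds EGFR and its related receptor kinases covalently and blocks them. All 6 samples are labelled wild-type HaCaT, and treatment began at 70% confluence. The design text attaches 0.1% DMSO to the experimental group. The sources used here do not give the dose, the vehicle or culture time of the controls, the hour of harvest or any synchronisation of the cells. Whether the 3 samples of a group were separate cultures is not stated. The p-values therefore measure the spread among the samples, and that spread may be technical. The treated columns carry the letter S, which no label explains. They were assigned to dacomitinib by elimination, and the direction of each difference rests on that assignment.

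The clock of mammalian cells is a loop of transcription and delayed repression. CLOCK and ARNTL (also called BMAL1) form a pair that binds E-box sequences and switches on the PER and CRY genes, whose proteins return to the nucleus and inhibit the pair. A side loop runs through the nuclear receptors NR1D1 and NR1D2 (REV-ERB), which repress ARNTL, and the ROR receptors, which activate it. DBP, TEF and HLF activate genes through D-box sequences, and NFIL3 represses them through the same sites. In skin, keratinocytes hold such a clock, which is known for timing DNA synthesis and differentiation over the day.

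The promoters of these genes are shown first, since E-boxes and D-boxes are the sites through which the loop acts on its own members. RefSeq promoter sequences (GRCh38.p14) were found for all 10 members, with 16 start sites. The 250 bases before each start were searched on both strands for CACGTG (E-box), TTATGTAA or TTACGTAA (D-box), TAGGTCA (core of the ROR element) and TGACGTCA (cAMP response element). No motif overlapped another in the windows printed. The windows of BHLHE40, BHLHE41 and NFIL3 lie wholly within annotated exons (GENCODE release 29), and that of CRY2 lies partly within them. These windows are kept short, and upstream means only before the RefSeq start. The related genes given beside the members are NR1D1, NR1D2, ARNTL2, NPAS2, HLF, BHLHE40, BHLHE41 and CIART. Matches in other clock genes are not reported here. The E-box was found upstream of 2 members, PER1 and TEF, and of the related genes NR1D2, BHLHE40, BHLHE41 and CIART, the last with 3 copies. In NR1D2 it lay upstream of the second start only. Over all 35116 promoters of the table, 6.34% held it, and of all genes 7.73%. The first set shows these E-boxes except those of CIART, which was too weakly expressed to be tested, with the motif in capitals and the rest in lower case, 5′ to 3′ on the strand of the gene.
PER1, chr17:8152545-8152604, minus strand: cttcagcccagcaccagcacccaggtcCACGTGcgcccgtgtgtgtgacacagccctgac
TEF, first start, chr22:41367233-41367292, plus strand: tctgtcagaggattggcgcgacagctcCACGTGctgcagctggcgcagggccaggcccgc
TEF, second start, chr22:41381722-41381781, plus strand: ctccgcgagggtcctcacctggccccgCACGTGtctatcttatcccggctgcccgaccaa
NR1D2, chr3:23945939-23945998, plus strand: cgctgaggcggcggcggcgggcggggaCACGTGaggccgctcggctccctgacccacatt
NR1D2, chr3:23945989-23946048, plus strand: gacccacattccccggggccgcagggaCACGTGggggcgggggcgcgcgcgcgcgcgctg
BHLHE40, chr3:4979187-4979216, plus strand: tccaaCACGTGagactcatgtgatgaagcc
BHLHE41, chr12:26125068-26125097, minus strand: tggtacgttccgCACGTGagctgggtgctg

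The D-box TTATGTAA was found upstream of 1 member, PER3, at its first start only. It was also found upstream of NR1D2, at the second start only and on the other strand. Of all promoters 0.834% held this D-box, and of all genes 1.06%. The ROR core was found upstream of the second start of CRY2 and of NFIL3, against 1.61% of all promoters and 2.01% of all genes. Of the genes in this second set, PER3, CRY2 and NFIL3 carry no E-box here, while the E-boxes of NR1D2 are printed above. The capitals again mark the motif, which in NR1D2 and NFIL3 is on the other strand.
PER3, chr1:7784088-7784147, plus strand: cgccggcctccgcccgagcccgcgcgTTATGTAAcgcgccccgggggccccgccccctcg
NR1D2, chr3:23945901-23945960, plus strand: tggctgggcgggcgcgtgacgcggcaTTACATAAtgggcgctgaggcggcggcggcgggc
CRY2, chr11:45847399-45847428, plus strand: ttgcggcgtcaTAGGTCActgggcgggcta
NFIL3, chr9:91423833-91423852, minus strand: gcgctcggaacTGACCTAct

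The other 5 members, CLOCK, ARNTL, PER2, CRY1 and DBP, held none of the motifs in these windows. Neither did the related genes NR1D1, ARNTL2, HLF and NPAS2, of which NR1D1 rose and ARNTL2 fell with dacomitinib, as given below. A match is a description of letters and not of binding, which was not measured. No match says only that the letters are not in that window.

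Libraries held 14960650 to 16179273 fragments on genes. Levels are in FPKM, that is, fragments divided by gene length and by the size of the library. Differences are dacomitinib minus control in log2(FPKM + 1), which understates the change of weakly expressed genes. They were tested with limma over the 13748 genes with a mean of at least 1 FPKM. A gene was called at a Benjamini-Hochberg adjusted p under 0.05. Of all tested genes 60.2% were called, 25.4% higher and 34.8% lower. How the calls divide into higher and lower depends on how the libraries are scaled, and the authors had scaled them before deposit. With each library rescaled to TPM, 61.8% were called, 42.0% higher and 19.8% lower, and the median difference of all tested genes moved from -0.06 to 0.23. The TPM shift is not that of the authors' scaling alone. With limma-voom on fragments, which leaves that scaling out, 4921 genes were higher and 3780 lower, with a median of 0.11. For this reason TPM values stand beside the results, and for several pairs of genes the ratio within a library, which no scaling can move. The same 1 was added to TPM, whose values are larger than the FPKM here, and so it shrinks TPM differences less. The FPKM and TPM differences of weakly expressed genes are therefore not on a like scale.

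All 10 members passed the expression limit. CRY1 fell, and it was the member with the largest difference. TEF, PER1 and PER3 rose. The other 6 members, CLOCK, ARNTL, PER2, CRY2, DBP and NFIL3, were not called. The count of called members was 4 of 10, beside the 60.2% of all tested genes. The median difference of the members was 0.11, against -0.06 for all tested genes. With TPM 8 members were higher and 1 lower, with DBP alone not called, beside 42.0% and 19.8% of all tested genes. The median of the members was then 0.43, against 0.23. Only the calls of CRY1, TEF and PER1 held under every alternative in which the gene was tested.

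**Figure D1:**
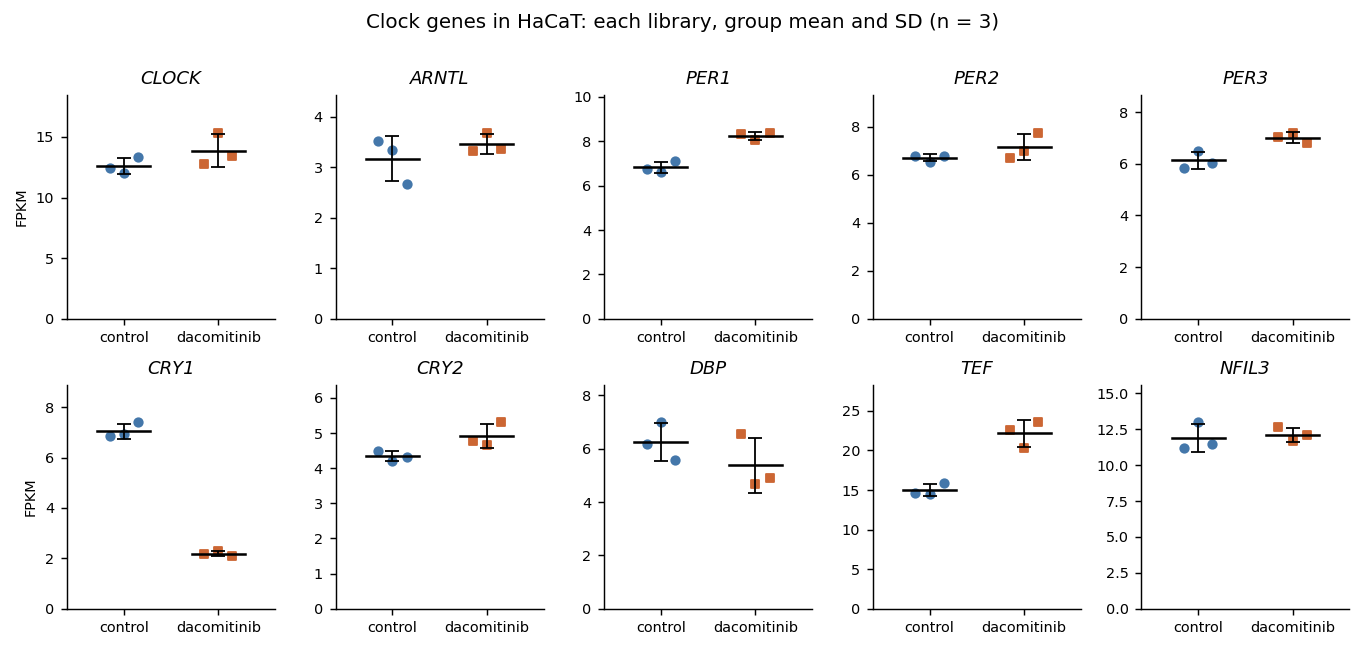
FPKM of each clock gene (vertical axes from 0) in the 3 control libraries (circles) and the 3 dacomitinib libraries (squares), with the group mean and SD as bars. CRY1 lies near 7 FPKM in controls and near 2 FPKM with dacomitinib, while TEF, PER1 and PER3 are higher with dacomitinib and the groups of CLOCK, ARNTL, PER2, DBP and NFIL3 overlap.

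The activators were measured at similar levels in both groups. CLOCK, which encodes a histone acetyltransferase with a DNA-binding domain, was at 12.4, 12.0 and 13.3 FPKM in the controls and 12.7, 15.4 and 13.4 FPKM with dacomitinib. Dacomitinib library 2 was the high one and library 3 lay just above the highest control, while library 1 lay among the controls, so the groups overlapped. The difference was 0.13 (SE 0.08, limma adjusted p = 0.197), with a 95% interval of -0.06 to 0.31. ARNTL, the partner of CLOCK, was at 3.51, 3.35 and 2.66 FPKM in the controls and 3.31, 3.68 and 3.37 FPKM with dacomitinib. The third control was low and the other libraries lay together. Its difference was 0.10 (SE 0.10, adjusted p = 0.415), with an interval of -0.14 to 0.34. With TPM both were called higher, CLOCK by 0.44 (adjusted p = 0.00805, with 0.000623 to 0.499 across alternatives) and ARNTL by 0.42 (adjusted p = 0.0217, with 0.0217 to 0.939 across alternatives). Within a library the ratio of CLOCK to ARNTL was 4.04 ± 0.830 in the controls and 4.003 ± 0.162 with dacomitinib (SD, n = 3), and the groups overlapped.

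PER1 rose modestly. This gene on chromosome 17 (ENSG00000179094, 8140472 to 8156506, GRCh38) encodes a PAS-domain repressor and is known as an early responder to growth and stress signals. It was at 6.76, 6.60 and 7.11 FPKM in the controls and 8.31, 8.05 and 8.39 FPKM with dacomitinib. The groups did not overlap, every treated library lying above every control. The difference was 0.24 (SE 0.05, adjusted p = 0.00559), or 0.57 with TPM.

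PER2, a PER repressor that the textbook loop needs for a stable rhythm, was at 6.80, 6.54 and 6.80 FPKM in the controls and 6.72, 7.004 and 7.76 FPKM with dacomitinib. The third treated library was the high one and the groups overlapped. Its difference was 0.08 (SE 0.06, adjusted p = 0.315), with an interval of -0.07 to 0.23. With TPM it was called higher at 0.39 (adjusted p = 0.00531, with 0.00531 to 0.731 across alternatives).

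PER3 (ENSG00000049246, chromosome 1, 7784320 to 7845177), the PER gene that is dispensable for rhythm in mice, was at 5.85, 6.49 and 6.05 FPKM in the controls and 7.02, 7.20 and 6.80 FPKM with dacomitinib. The groups did not overlap. Its difference was 0.17 (SE 0.06, adjusted p = 0.0375) and 0.49 with TPM. The call was lost when control library 1 (adjusted p = 0.123) or 3 (adjusted p = 0.0890) or dacomitinib library 1 (adjusted p = 0.0789), 2 (adjusted p = 0.103) or 3 (adjusted p = 0.0623) was left out, without the expression limit (adjusted p = 0.0646), and with a replicate block on the library numbers (adjusted p = 0.0581), over alternatives from 0.000245 to 0.123. The 3 PER genes together summed to 19.7 ± 0.278 FPKM in the controls and 22.4 ± 0.475 FPKM with dacomitinib.

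CRY1 was the member that changed most. CRY1 (ENSG00000008405, chromosome 12, 106991364 to 107093829, minus strand) encodes a cryptochrome, the strongest repressor of the CLOCK and ARNTL pair. It was at 6.84, 6.92 and 7.39 FPKM in the controls and 2.17, 2.30 and 2.10 FPKM with dacomitinib. All 3 treated libraries lay together, far below the controls. Mean levels were 7.05 ± 0.299 and 2.19 ± 0.100 FPKM (SD, n = 3), from 1580 fragments over the controls and 562 over the treated libraries, so the treated mean was 0.311 of the control mean. The gene fell by 1.33 on the log2 scale (SE 0.06, adjusted p = 8.25e-06), with a 95% interval of -1.49 to -1.18, and fell by 1.28 with TPM. Mean TPM was 23.9 in the controls and 9.26 with dacomitinib, as a ratio a smaller fall than in FPKM. Of all tested genes 3.62% had a difference at or below that of CRY1.

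CRY2, the second cryptochrome, was not called. It was at 4.50, 4.20 and 4.32 FPKM in the controls and 4.76, 4.66 and 5.30 FPKM with dacomitinib. Every treated library lay above every control, by little. The difference was 0.14 (SE 0.07, adjusted p = 0.102), with an interval of -0.01 to 0.30, and it was called with TPM at 0.47 (adjusted p = 0.00240, with 0.00240 to 0.286 across alternatives). The ratio of CRY2 to CRY1 within a library, which no scaling moves, was 0.658, 0.608 and 0.585 in the controls and 2.19, 2.03 and 2.52 with dacomitinib. It was thus 3.63-fold higher with dacomitinib, and the more abundant cryptochrome transcript per length changed from CRY1 to CRY2 in all 3 treated libraries.

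TEF rose and was the most abundant member in both groups. TEF (ENSG00000167074, chromosome 22, 41367333 to 41399326) is a PAR bZIP activator of D-box genes. It was at 14.6, 14.5 and 15.9 FPKM in the controls and 22.6, 20.3 and 23.5 FPKM with dacomitinib. The groups lay well apart, at 15.03 ± 0.787 and 22.1 ± 1.69 FPKM. Its difference was 0.53 (SE 0.07, adjusted p = 0.000640), or 0.86 with TPM. Both RefSeq starts of TEF carry an E-box upstream, as printed above.

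DBP, the PAR bZIP activator that is often used as a readout of the loop because its transcript follows E-box activity closely, was not called. It was at 6.18, 6.99 and 5.56 FPKM in the controls and 6.57, 4.66 and 4.90 FPKM with dacomitinib. Treated library 1 lay among the controls and the other treated libraries below them. The difference was -0.19 (SE 0.13, adjusted p = 0.241), with an interval of -0.50 to 0.12. It was 0.09 with TPM, of opposite sign (adjusted p = 0.568), and without dacomitinib library 1 DBP was called lower at -0.32 (adjusted p = 0.0343, with 0.0343 to 0.797 across alternatives).

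NFIL3, which represses genes at D-boxes, was at 11.2, 13.0 and 11.5 FPKM in the controls and 12.6, 11.7 and 12.1 FPKM with dacomitinib. The groups overlapped, with a difference of 0.03 (SE 0.07, adjusted p = 0.729) and an interval of -0.13 to 0.19. With TPM it was called higher at 0.34 (adjusted p = 0.00352, with 0.00352 to 0.996 across alternatives). HLF, the other PAR bZIP factor, was close to absent, at 10 control and 5 treated fragments in all.

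**Figure D2:**
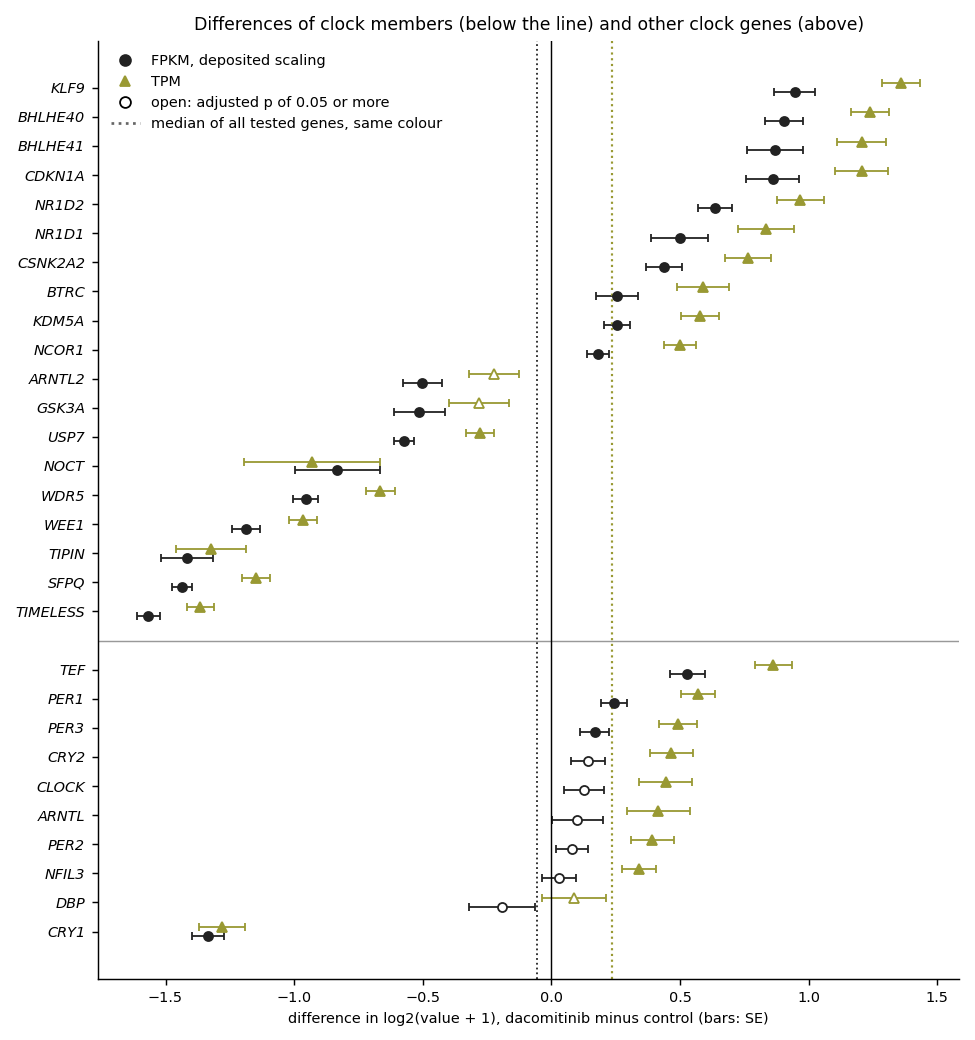
Difference in log2(value + 1), dacomitinib minus control, with its SE, for the clock genes (lower block) and the other named genes of the clock lists (upper block). Circles use the deposited FPKM and triangles TPM, open symbols were not called, and dotted lines mark the median of all tested genes, -0.06 and 0.23. CRY1 stands far left under both scalings, and most other members lie near or right of the median.

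The make-up of the families within each library, chosen after the values were seen and given without a test, showed where the proportions moved. CRY1 made up 61.9 ± 1.42% of the summed cryptochrome FPKM in the controls and 30.9 ± 2.36% with dacomitinib (SD, n = 3). PER1 made up 34.7 ± 1.00% and 36.8 ± 0.790% of the PER genes, PER2 34.2 ± 0.851% and 31.9 ± 1.72%, and PER3 31.2 ± 1.63% and 31.3 ± 1.45%. The PER1 share did not overlap between the groups and was higher with dacomitinib, by far less than the cryptochrome shares moved, and the PER2 and PER3 shares overlapped. Of the D-box factors TEF made up 45.3 ± 3.11% and 55.8 ± 2.03%, NFIL3 35.8 ± 1.58% and 30.6 ± 1.10%, and DBP 18.8 ± 1.75% and 13.5 ± 1.92%. None of these 3 shares overlapped between the groups. The ratio of TEF to NFIL3 was 1.27 ± 0.138 in the controls and 1.83 ± 0.110 with dacomitinib, and that of DBP to NFIL3 0.525 ± 0.0349 and 0.442 ± 0.0673, which overlapped.

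Against ARNTL, the ratios of 4 of the 5 PER and CRY genes overlapped between the groups. The ratio of PER1 to ARNTL was 2.19 ± 0.418 in the controls and 2.39 ± 0.181 with dacomitinib, that of PER2 2.15 ± 0.353 and 2.08 ± 0.207, and that of PER3 1.96 ± 0.303 and 2.03 ± 0.0812. The ratio of CRY2 to ARNTL was 1.39 ± 0.206 and 1.43 ± 0.156. CRY1 was the one that did not overlap. The ratio of CRY1 to ARNTL was 1.95, 2.07 and 2.78 in the controls and 0.655, 0.624 and 0.624 with dacomitinib. For PER1 and PER3 the overlap rested on control library 3, where ARNTL was lowest. The ratio of PER1 to ARNTL was 1.93 and 1.97 in the other controls against 2.51, 2.19 and 2.49 with dacomitinib, and that of PER3 was 1.67 and 1.94 against 2.12, 1.96 and 2.02. Without that library the log2 difference of the ratio went from 0.14 to 0.29 for PER1, from 0.06 to 0.18 for PER3, from 0.04 to 0.16 for CRY2 and from -0.04 to 0.09 for PER2. The ratios were not tested.

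**Figure D3:**
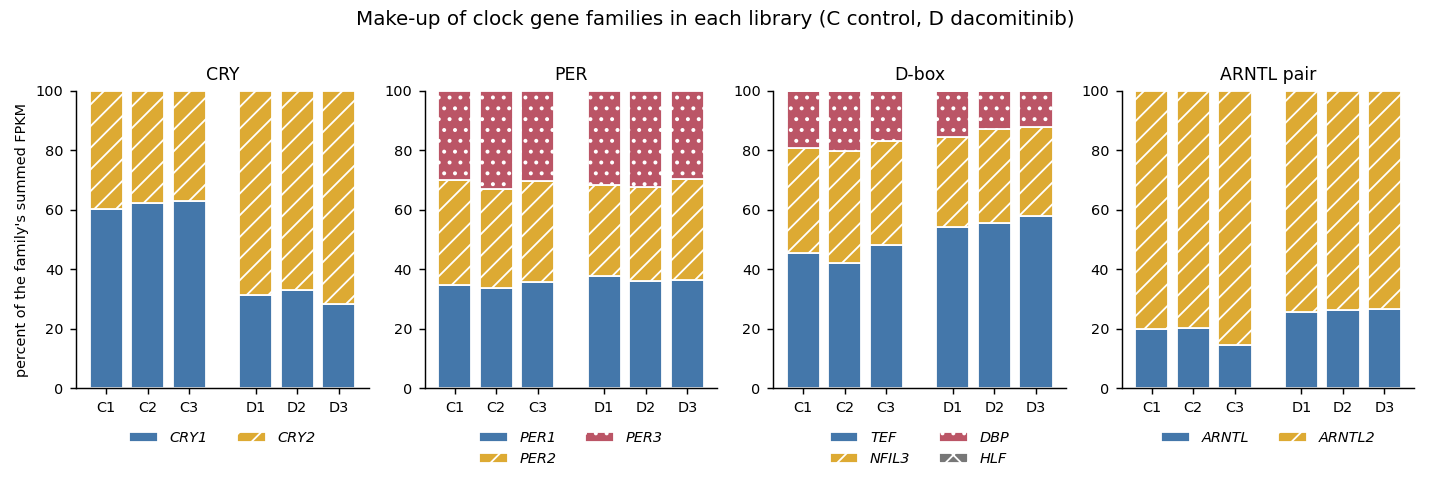
Percent of each family's summed FPKM taken by each gene, 1 bar per library, with the 3 control bars on the left and the 3 dacomitinib bars on the right of each panel. CRY1 takes 61.9% of the cryptochrome sum in controls and 30.9% with dacomitinib, the PER panel moves far less, TEF grows among the D-box factors, and HLF is too low to be seen.

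Ranked by level per length, the controls ran TEF, CLOCK, NFIL3, CRY1, PER1, PER2, DBP, PER3, CRY2 and ARNTL, from 15.03 to 3.17 FPKM. The ranges of CLOCK and NFIL3 overlapped, and so did each neighbouring pair from CRY1 to PER3, so the order within those runs is not resolved. With dacomitinib the order was TEF, CLOCK, NFIL3, PER1, PER2, PER3, DBP, CRY2, ARNTL and CRY1, from 22.1 to 2.19 FPKM. CRY1 thus went from the fourth place to the last, and its range lay apart from that of ARNTL. The ranges of PER2 and PER3, and of DBP and CRY2, overlapped.

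Both genes of the REV-ERB pair, repressors of ARNTL, rose. NR1D1 was at 13.8, 14.9 and 10.7 FPKM in the controls and 18.7, 19.0 and 18.8 FPKM with dacomitinib, a difference of 0.50 (SE 0.11, adjusted p = 0.00737) and 0.83 with TPM. NR1D2 was at 21.2, 22.5 and 22.8 FPKM in the controls and 32.0, 37.5 and 35.7 FPKM with dacomitinib, a difference of 0.64 (SE 0.07, adjusted p = 0.000250) and 0.97 with TPM. The groups did not overlap for either gene, and the ratio of NR1D1 to ARNTL was 4.14 ± 0.289 and 5.46 ± 0.268. Of the receptors that oppose them, those given here were hardly expressed: RORA counted 112 control and 169 treated fragments and RORB 16 and 4.

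The DEC repressors, which bind E-boxes and compete with CLOCK and ARNTL there, showed larger rises than any member. BHLHE40 was at 24.4, 23.1 and 19.995 FPKM in the controls and 42.7, 43.3 and 42.3 FPKM with dacomitinib, a difference of 0.90 (SE 0.07, adjusted p = 8.08e-05) and 1.24 with TPM. BHLHE41 was at 21.5, 26.4 and 19.9 FPKM in the controls and 45.6, 39.4 and 40.7 FPKM with dacomitinib, a difference of 0.87 (SE 0.11, adjusted p = 0.000543) and 1.21 with TPM. Together they summed to 45.1 ± 4.84 FPKM in the controls and 84.7 ± 3.18 FPKM with dacomitinib. CIART, a further repressor with 3 E-boxes upstream, had too few fragments to be tested, 86 in each group.

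Of the activator paralogs, ARNTL2 was more abundant per length than ARNTL and fell. It was at 14.0, 13.1 and 15.8 FPKM in the controls and 9.69, 10.4 and 9.29 FPKM with dacomitinib, with no overlap. The difference was -0.50 (SE 0.08, adjusted p = 0.00134), and with TPM it was -0.22 and not called (adjusted p = 0.0831, with 0.000223 to 0.0831 across alternatives). Within a library ARNTL2 made up 81.7 ± 3.33% of the ARNTL and ARNTL2 sum in the controls and 73.9 ± 0.564% with dacomitinib. NPAS2, the paralog of CLOCK, was close to absent, at 12, 4 and 16 control and 10, 46 and 13 treated fragments, of which dacomitinib library 2 gave the most.

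**Figure D4:**
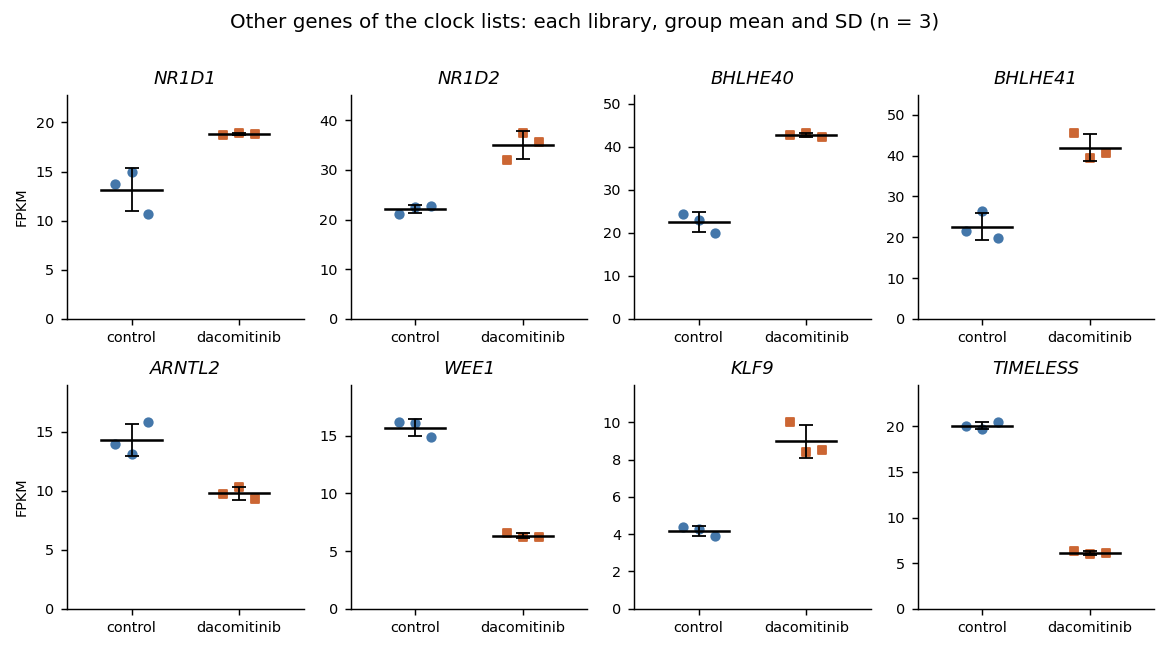
FPKM (vertical axes from 0) of 8 other genes of the clock lists in the 3 control libraries (circles) and the 3 dacomitinib libraries (squares), with the group mean and SD as bars. NR1D1, NR1D2, BHLHE40, BHLHE41 and KLF9 are higher with dacomitinib and ARNTL2, WEE1 and TIMELESS lower, with no overlap between the groups.

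Of the 48 other genes on the clock lists, 39 passed the expression limit, 12 rose and 14 fell, beside 25.4% higher and 34.8% lower for all tested genes. Their median was -0.03, against -0.06 for all. With TPM 23 were higher and 8 lower, beside 42.0% and 19.8% for all. Among the kinases and ubiquitin enzymes that set the stability of PER and CRY, 2 of 13 tested genes rose and 5 fell, and with TPM 7 were higher and 1 lower, beside the same shares. CSNK2A2, a catalytic subunit of casein kinase 2, rose by 0.44 (SE 0.07, adjusted p = 0.00176), or 0.77 with TPM. BTRC, a ubiquitin ligase subunit that marks PER for breakdown, rose by 0.25 (SE 0.08, adjusted p = 0.0315), or 0.59 with TPM. That call was lost without control library 2 (adjusted p = 0.0577) or 3 (adjusted p = 0.0830), without dacomitinib library 2 (adjusted p = 0.0910) or 3 (adjusted p = 0.0567), and without the expression limit (adjusted p = 0.0695), over alternatives from 0.000151 to 0.0910. USP7, a deubiquitinase that stabilises CRY1, fell by 0.57 (SE 0.04, adjusted p = 4.08e-05) and fell by 0.28 with TPM. GSK3A, a kinase of several clock proteins, fell by 0.51 (SE 0.10, adjusted p = 0.00387), a call lost with TPM (adjusted p = 0.0691, with 0.00259 to 0.0691 across alternatives).

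Among 10 cofactors of the loop 2 rose and 4 fell, beside 25.4% higher and 34.8% lower for all tested genes. With TPM 6 were higher and 3 lower, beside 42.0% and 19.8%. KDM5A, a histone demethylase that assists CLOCK and ARNTL, rose by 0.25 (SE 0.05, adjusted p = 0.00470), or 0.58 with TPM. NCOR1, the corepressor of the REV-ERB proteins, rose by 0.18 (SE 0.04, adjusted p = 0.00936), or 0.50 with TPM. SFPQ, an RNA-binding protein found in PER complexes, was at 71.7, 68.7 and 70.1 FPKM in the controls and 24.9, 25.8 and 25.2 FPKM with dacomitinib, and fell by 1.44 (SE 0.04, adjusted p = 1.04e-06) and fell by 1.15 with TPM. WDR5, a subunit of histone methyltransferase complexes that also joins PER complexes, fell by 0.96 (SE 0.05, adjusted p = 1.22e-05) and fell by 0.67 with TPM.

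Among 9 genes known as outputs of the clock 4 rose and 2 fell, beside 25.4% higher and 34.8% lower for all tested genes. With TPM 6 were higher and 2 lower, beside 42.0% and 19.8%. KLF9, a clock-driven repressor of keratinocyte proliferation, was at 4.37, 4.27 and 3.88 FPKM in the controls and 9.99, 8.42 and 8.50 FPKM with dacomitinib, a difference of 0.94 (SE 0.08, adjusted p = 9.71e-05) and 1.36 with TPM. CDKN1A, which encodes the inhibitor p21, rose by 0.86 (SE 0.10, adjusted p = 0.000431), or 1.21 with TPM. WEE1, a kinase that holds cells before mitosis and is driven through E-boxes, was at 16.1, 16.1 and 14.8 FPKM in the controls and 6.59, 6.19 and 6.19 FPKM with dacomitinib, and fell by 1.19 (SE 0.05, adjusted p = 7.16e-06) and fell by 0.97 with TPM. NOCT, a rhythmic phosphatase, fell by 0.83 (SE 0.16, adjusted p = 0.00436) and fell by 0.93 with TPM. Its control and dacomitinib means were 2.36 and 0.889 FPKM, and 8.02 and 3.78 TPM. As a ratio the fall of NOCT was thus smaller with TPM. TIMELESS and TIPIN act at replication forks, and TIMELESS shares its name with a fly clock gene. TIMELESS fell by 1.57 (SE 0.04, adjusted p = 1.27e-06) and TIPIN by 1.42 (SE 0.10, adjusted p = 4.74e-05). With TPM TIMELESS fell by 1.36 and TIPIN fell by 1.32.

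Several features of the libraries moved between the same groups. Mitochondrial genes took 7.83 ± 0.389% of fragments in the controls and 4.71 ± 0.162% with dacomitinib (SD, n = 3). Genes with a fragment numbered 23580 to 24131 and 25693 to 25715. Neither overlapped between the groups, and their part in the clock results was not tested. Proliferation markers (MKI67, TOP2A, CDK1, CCNB1 and MCM2) summed to 498 to 504 FPKM in the controls and 43.9 to 47.9 FPKM with dacomitinib, and all 5 fell. Their part in the fall of CRY1, WEE1, TIMELESS and TIPIN was not tested. All 6 keratinocyte markers were expressed, with a sum of 821 to 885 and 666 to 782 FPKM, KRT5 and KRT14 making up most of it. KRT5 (-0.34, and -0.02 and not called with TPM) and KRT14 (-0.87) were lower, while KRT17 (0.90), DSG3 (0.52) and CDH1 (0.45) were higher. The 22 markers of fibroblasts, endothelial cells, melanocytes and immune cells summed to 5.30 to 5.99 and 17.1 to 20.7 FPKM. Of these 3 passed the expression limit and 2 rose, CDH5 and COL3A1, while MITF was not called. CDH5 alone was at 1.15 FPKM in the controls and 10.0 FPKM with dacomitinib. VIM counted 3 control fragments and 0 treated ones, and COL1A2, PDGFRA, KDR and TYR had 0 in every library. Below the expression limit, and so not tested, some other markers of the same cell types had more fragments with dacomitinib and no overlap in FPKM: DCN had 11 control and 584 treated fragments, LUM 1 and 43, VWF 153 and 628, and PMEL 106 and 261. Others overlapped in FPKM. Of these COL1A1 had 143 control and 107 treated fragments, CLDN5 6 and 0, PTPRC 13 and 2, PECAM1 164 and 311, and MLANA 81 and 121. The part of these markers in the clock results was not tested. In bulk RNA a change in the share of cells that express a gene and a change in RNA per cell cannot be told apart. Likewise, with only 1 time given, that of the treated group, a shift in the phase of a rhythm and a change in mean level cannot be told apart.

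Whether fragments were counted by strand is not given in the sources used here, and without strand a gene and its antisense neighbour cannot be told apart where exons overlap. In GENCODE release 29, 10.1% of the exon bases of DBP were shared with SPHK2, which had 546 control and 496 treated fragments, against 1813 and 1783 for DBP. For PER3, 10.7% were shared with UTS2, which had 0 fragments in both groups, and 5.95% with an antisense gene that had 38 and 50. For CRY1, 1.86% were shared with an antisense gene that had 0 fragments in both groups. For NR1D1, 9.49% were shared with THRA, which had 1078 control and 1837 treated fragments, against 1616 and 2645 for NR1D1. For BHLHE41, 4.10% were shared with SSPN, which had 122 and 660, against 3962 and 8391 for BHLHE41. For BHLHE40, 0.104% were shared with an antisense gene that had 18 and 108. TEF shared no exon base with another gene.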

How the data were processed

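RNA was measured in 3 control and 3 dacomitinib libraries. The authors deposited FPKM per gene with gene lengths. The submitters' processing notes list build GRCh38 and, without saying what each did, DESeq2 1.20.0, featureCounts, HISAT2, fastp and CASAVA. Multiplied by gene length, the deposited FPKM were whole multiples of 1 fragment for 100% of values (tolerance 0.01), which gave fragments per gene. Relative to its summed fragments, the size used for a library in the FPKM was 0.952 ± 0.00449 in controls and 1.07 ± 0.0244 with dacomitinib (SD, n = 3), a scaling whose method is not given in the sources used here. Libraries held 14960650 to 16179273 fragments.

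Values were tested as log2(FPKM + 1) in limma 3.58.1 under R 4.3.3, fitting a trend of variance on mean, two-sided, adjusted over all 13748 tested genes. The procedure was also tested on simulated data. The 19 alternatives cover pseudocount, filter, scaling, test, a replicate block and leaving out each library. Among the scalings, the median ratio across genes nearly repeats the deposited values, with 3493 genes higher and 4778 lower under each. Members and lists were chosen with earlier results of these data known. The rule names all members, 10 fixed partner genes and up to 2 rises and 2 falls per list. Some genes of the lists are not reported here. Proteins were not analysed here.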

Additional observations from a re-analysis of the deposited data

How the results depend on the processing

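Members called higher, 3 as reported, were 8 with TPM, 7 with quantile normalization, 6 scaled to nuclear fragments, 8 scaled to protein-coding genes and 7 with limma-voom on fragments. The count over all tested genes moved too. Of 13748 genes, 3493 were higher as reported, 5779 with TPM, 4178 with quantile normalization and 4921 with voom. Scaled to nuclear fragments it was 4282 of 13711 genes, and scaled to protein-coding genes 3906 of 10622. Genes called lower were 4778 as reported and 2721 with TPM. Members called lower, 1 as reported, were 0 at a mean of at least 5 FPKM, where CRY1 is not tested, and 1 to 2 when 1 library was left out, the second being DBP without dacomitinib library 1. Other clock genes called higher, 12 as reported, were 23 with TPM, 19 with quantile normalization, 20 scaled to protein-coding genes and 20 with voom, and those called lower, 14 as reported, were 8 with TPM. With TPM the median difference of all tested genes was 0.23 in place of -0.06, and for the other settings the cause was not tested. The sign turned for DBP with TPM (0.0869) and for NFIL3 without control library 1 (-0.00799), neither called, and over left-out libraries NFIL3 ran from -0.00799 to 0.0889.

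With the replicate block, 2 members were higher, PER3 being lost, 1 was lower, and other clock genes stayed at 12 and 14. The library numbers of the treated columns are tied to no label. Deviations of same-numbered libraries correlated at 0.03, -0.02 and 0.04 across genes, and those of differently numbered libraries at -0.08 to 0.05. No pairing by number was visible, and with 3 libraries a group this check cannot exclude one. Of 547 results of a single named gene under an alternative, 509 kept direction and call, 22 gained and 14 lost the call.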
